A study of Mus musculus with 24 samples.

Results

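The genes described here encode 10 enzymes that remove superoxide and peroxides: the superoxide dismutases Sod1, Sod2 and Sod3, the catalase Cat, the glutathione peroxidases Gpx1, Gpx3 and Gpx4, and the peroxiredoxins Prdx1, Prdx3 and Prdx5. They are a list of names, with no measured value in the rule, drawn up with earlier results of these data known, from the 55487 mouse genes listed in each table. All 10 were found, and all 10 passed the filter on low values (0.5 TPM or more in 8 or more libraries), which left 14690 genes to test. TPM, a unit scaled to the same total in every library, is a gene's share of a library's transcripts after correction for transcript length.

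Superoxide is made when oxygen takes up a single electron, in mitochondria, in peroxisomes and by NADPH oxidases. Dismutases turn it into hydrogen peroxide, which catalase, the glutathione peroxidases and the peroxiredoxins reduce, the peroxidases with electrons from glutathione or thioredoxin that come in the end from NADPH. In skeletal muscle these enzymes sit in the cytosol, the mitochondria, the peroxisomes and outside the cell, and disuse is known as a state in which oxidant production in muscle changes.

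Gastrocnemius, a calf muscle, was taken from 24 male C57BL/6J mice, 8 to a group, and its poly-adenylated RNA was sequenced in 1 library per mouse. In the first group both hindlimbs were held in casts for 8 days and the mice received MOTS-c, a peptide encoded in the mitochondrial genome, 15 mg/kg/day split over 2 intraperitoneal injections daily, also for 8 days. The second group was casted in the same way and received sterile water on the same schedule. The third was not casted and received the same water injections. These groups are called casted with MOTS-c, casted, and uncasted. The labels give an age of 12 weeks, and the design text an age of 10 weeks when the mice were assigned. No group was uncasted with MOTS-c, so MOTS-c can be compared with water in casted mice only. All mice are of 1 sex and 1 inbred strain, a strain known to carry a deletion in Nnt, a mitochondrial enzyme that supplies NADPH.

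Because TPM are shares of a fixed total, libraries were brought to a common scale with a trimmed mean of log ratios, and levels below are scaled TPM unless called deposited. The scaling factors ran from 1.05 to 1.21 in 7 of the 8 libraries of casted mice with MOTS-c, from 0.997 to 1.24 in casted mice and from 0.731 to 0.854 in uncasted mice. Replicate 5 of the casted mice with MOTS-c stood apart from its group, with a factor of 0.891. Transcripts of the mitochondrial genome held 20.3% of that library's TPM, 15.3% to 18% in the other 7 libraries of its group, 13.9% to 17.1% in casted mice and 20.5% to 22.3% in uncasted mice. Without scaling, the median gene was 0.389 higher on the log2 scale in casted than in uncasted mice, 0.341 higher in casted mice with MOTS-c than in uncasted mice, and 0.068 lower in casted mice with MOTS-c than in casted mice (log2 change of -0.068). Changes below are therefore relative to the middle of all genes, and the deposited scale is named where a call or a direction differs on it. Sequencing depth is unknown, since TPM keep none.

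Transcripts of Sod1 and Sod2 changed in opposite directions with casting, and all 3 glutathione peroxidase genes among the 10 rose. In casted against uncasted mice, 5 of the 10 genes were higher (Gpx3, Sod1, Gpx4, Gpx1 and Prdx1) and 3 were lower (Sod2, Prdx5 and Prdx3) at an adjusted p below 0.05 in limma, while Cat and Sod3 did not pass. The backgrounds for these counts are 28.7% of all genes tested called higher and 27.7% called lower. The median log2 change was 0.21 over the 10 genes and 0.01 over all genes tested. On the deposited scale 9 of the 10 were higher and 1, Sod2, was lower, against 62.2% and 7.43% of all genes. With MOTS-c, 0 of the 10 genes differed from casted mice given water in limma, and 2 had an unadjusted p below 0.05. Of all genes tested, 0.0136% were called higher with MOTS-c, 0.00681% were called lower, and 13.5% had an unadjusted p below 0.05. With only casted replicates 5 to 8 as controls, 678 genes were higher and 838 were lower with MOTS-c, and with only replicates 1 to 4 there were 1 and 1, while the count for the 10 enzyme genes was 0 with either set. It was also 0 of 10 on the deposited scale, where 0.0204% of all genes were called higher and 0.034% lower. For none of the 10 were the libraries of these groups apart, as they were for 0.0408% (higher) and 0.034% (lower) of all genes.

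In whole muscle, fewer cells of a type and less RNA per cell cannot be told apart, which holds for every change given here.

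**Figure D1:**
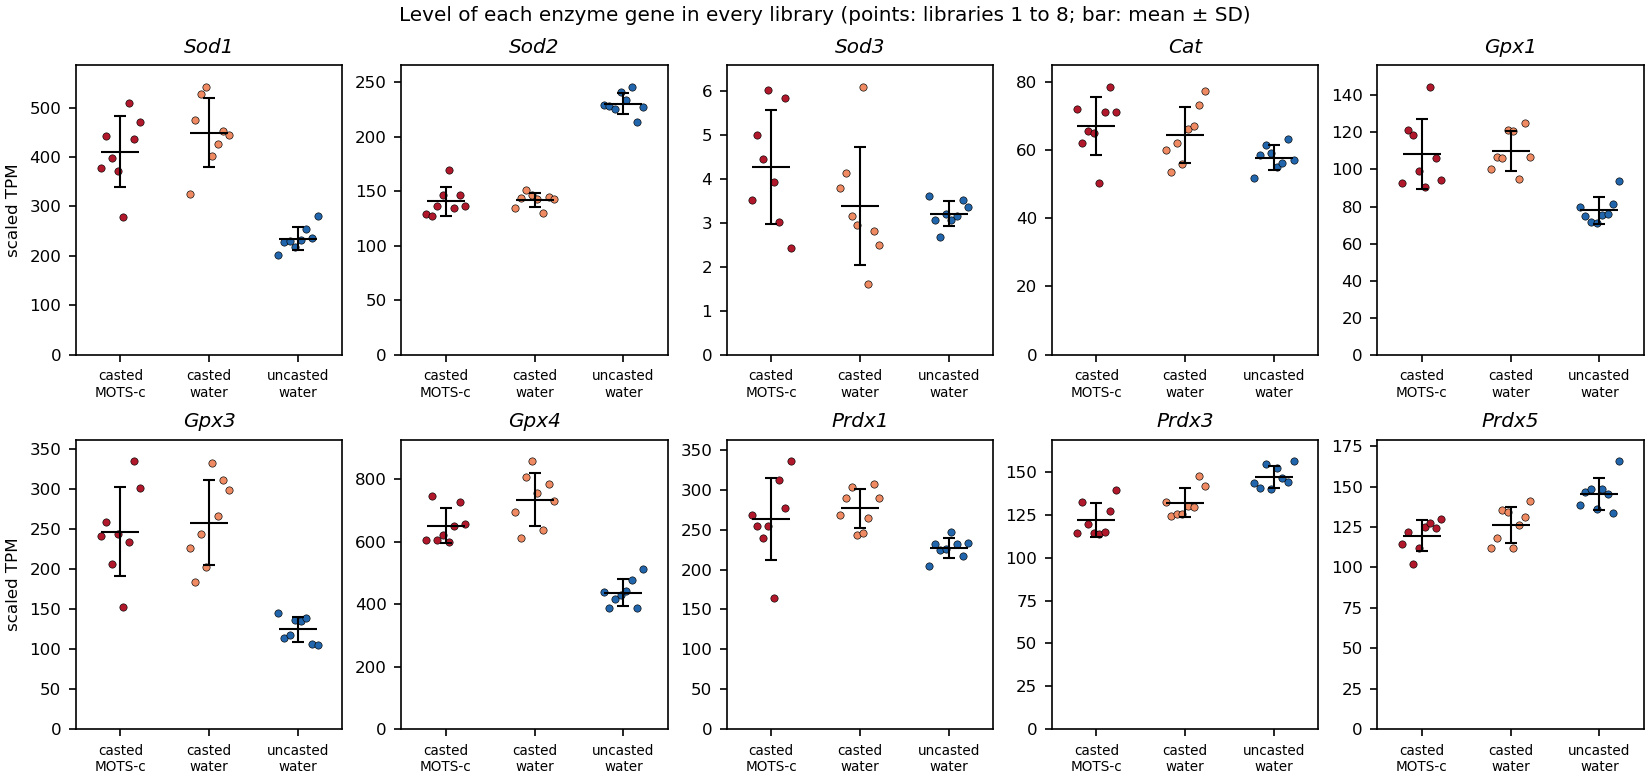
Scaled TPM (vertical axes, linear from 0) of each of the 10 genes in every library of casted mice with MOTS-c, casted mice and uncasted mice. Points are libraries and bars are the mean ± SD of 8 libraries; Sod1, Gpx1, Gpx3 and Gpx4 lay higher in every library of casted mice given water than in any uncasted one, and Sod2 lay lower in the libraries of both casted groups than in any uncasted one.

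Sod1 (ENSMUSG00000022982, chr16:90220754-90226329, plus strand, GRCm38) encodes the copper- and zinc-dependent dismutase of the cytosol. Its level had a lowest value of 324, a median of 448 and a highest of 542 scaled TPM in casted mice, against 202, 231 and 281 in uncasted mice. Every casted library lay above every uncasted one, and the log2 change was 0.92 ± 0.11 (SE; fold 1.89; limma adjusted p = 1.01e-07). Among all genes tested, 11.5% were above in all casted libraries in this way and 10.9% were below. A processed pseudogene of 97.8% identity over 465 bases, Gm8566, had a mean of 11.6 deposited TPM in casted mice and 3.41 in uncasted mice, so reads of Sod1 may be divided between both. Scaf4 overlaps Sod1 on the opposite strand with 0 shared exon bases.

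Sod2 (ENSMUSG00000006818, chr17:13006846-13040063, plus strand) encodes the manganese-dependent dismutase of the mitochondrial matrix. It had 130, 143 and 151 scaled TPM (lowest, median, highest) in casted mice, against 213, 228 and 246 in uncasted mice. No libraries of the groups overlapped, and the log2 change was -0.69 ± 0.05 (SE; fold 0.618; limma adjusted p = 1.9e-10). On the deposited scale the groups overlapped and the change shrank to -0.18 (limma adjusted p = 0.00297), still lower when the median gene was higher. A transcript of Rps6ka2 shares 3110 bases at 98.3% identity with Sod2, and Rps6ka2 had a mean of 57.4 deposited TPM in casted mice and 48.7 in uncasted mice. The sources used here do not say how such reads were divided.

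Sod3 (ENSMUSG00000072941, chr5:52363791-52371418, plus strand) encodes the secreted dismutase of the extracellular space. It was the lowest of the 10 genes, at 1.61, 3.05 and 6.11 scaled TPM (lowest, median, highest) in casted mice, against 2.69, 3.19 and 3.61 in uncasted mice. The casted libraries spread on both sides of the uncasted ones, and the log2 change was 0.01 ± 0.16 (SE; limma adjusted p = 0.979; 95% interval -0.32 to 0.33). On deposited TPM it was 0.39 and passed (limma adjusted p = 0.0377), a change equal to that of the median gene. The coefficient of variation was 39.7% in casted mice and 9.01% in uncasted mice.

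The balance between Sod1 and Sod2 can be read within each library, where scaling between libraries cancels. The Sod1 to Sod2 ratio of TPM had a lowest value of 1.64, a median of 2.95 and a highest of 3.80 in casted mice with MOTS-c, 2.40, 3.20 and 3.71 in casted mice, and 0.883, 1.01 and 1.24 in uncasted mice. Both transcripts were thus at similar levels per length in uncasted muscle, and Sod1 was above Sod2 in every casted library. The log2 difference was 1.62 in casted against uncasted mice and 1.51 in casted mice with MOTS-c against uncasted mice (two-sided exact permutation test, p = 0.0001554 for each, the smallest that 8 against 8 libraries can give, adjusted p = 0.000466 over 15 tests of 5 ratios chosen after the data were seen). These p-values add nothing to the results of the single genes. Every casted library lay above all uncasted ones for Sod1 and below them for Sod2, which fixes the order of the ratios. With MOTS-c against uncasted mice the same held on deposited TPM. Casted mice with MOTS-c differed from casted mice by -0.12 (exact permutation p = 0.5054, adjusted p = 0.583). The difference is 0.00077 without replicate 5 of the casted mice with MOTS-c.

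**Figure D2:**
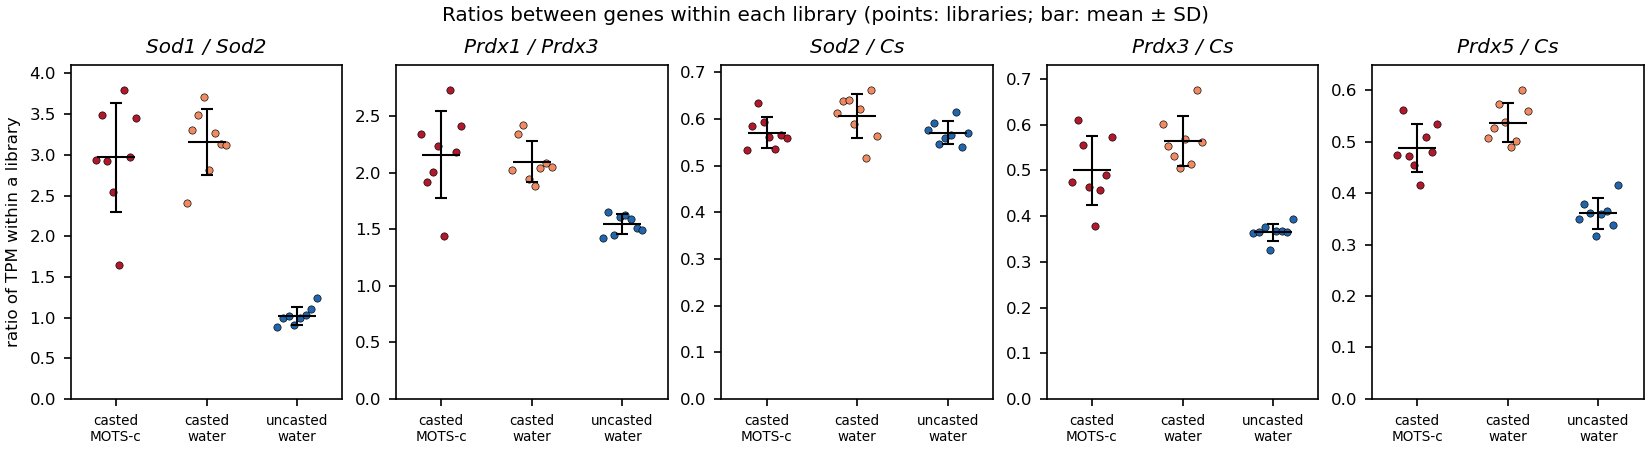
Ratio of the TPM of 2 genes within each library (vertical axes, linear from 0) for casted mice with MOTS-c, casted mice and uncasted mice; points are libraries and bars the mean ± SD of 8. The Sod1 to Sod2 ratio had medians of 2.95, 3.20 and 1.01 in these groups, and the Sod2 to Cs ratio overlapped between all of them.

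Cat (ENSMUSG00000027187, chr2:103453849-103485160, minus strand) encodes catalase, the peroxisomal enzyme that breaks down hydrogen peroxide without an electron donor such as glutathione. It had 53.5, 64.0 and 77.3 scaled TPM (lowest, median, highest) in casted mice, against 51.6, 57.7 and 63.3 in uncasted mice. The groups overlapped, and the log2 change of 0.15 ± 0.08 (SE) did not pass in limma (adjusted p = 0.119). The casted libraries were not alike: replicates 5 to 8 ran from 66.1 to 77.3 scaled TPM and replicates 1 to 4 from 53.5 to 61.9. With only replicates 5 to 8 the change was 0.29 (limma adjusted p = 0.00765), and with only replicates 1 to 4 it was 0.0028 (limma adjusted p = 0.984). With weights for single libraries it was 0.16 and passed (limma adjusted p = 0.0433). Cat was higher by 0.66 on the deposited scale (limma adjusted p = 1.39e-05). Nothing in the labels says what sets these replicates apart.

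Gpx1, Gpx3 and Gpx4 are selenoproteins: their transcripts carry a UGA codon inside the reading frame that is read as the amino acid selenocysteine, which lies in the active site of these peroxidases. The stretches below, written as DNA 5′ to 3′ from the GENCODE transcripts of GRCm38, have that codon in capitals with 15 bases on either side. They are shown because they carry the shared active-site codon, and because a copy of Gpx4 is nearly the same there. Genome positions of the codon are chr9:108339451-108339453 for Gpx1, chr11:54907256-54907258 for Gpx3 and chr10:80054737-80054739 for Gpx4, all on the plus strand. Gpx4-ps2 lies at chr10:45875291-45876086.
Gpx1: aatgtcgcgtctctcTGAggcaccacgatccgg
Gpx3: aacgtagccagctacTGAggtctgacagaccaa
Gpx4: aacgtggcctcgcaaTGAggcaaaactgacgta
Gpx4-ps2: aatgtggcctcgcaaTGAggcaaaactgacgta
The last stretch differs from that of Gpx4 by the substitution C3T, counted from 1 at the first base shown, with the base of Gpx4 first.

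Gpx3 (ENSMUSG00000018339, chr11:54902453-54910377, plus strand) encodes the secreted glutathione peroxidase of plasma and extracellular fluid, and had the largest rise of the 10 genes. Its lowest, median and highest levels were 184, 254.5 and 332 scaled TPM in casted mice, against 105, 126 and 144 in uncasted mice. The groups did not overlap, and the log2 change was 1.03 ± 0.13 (SE; fold 2.04; limma adjusted p = 5.9e-07). Casted replicates 5 to 8 averaged 302 scaled TPM and replicates 1 to 4 averaged 214, again without overlap, and each set on its own gave a rise past the threshold, of 1.28 and 0.78 (limma adjusted p = 2.94e-07 and 0.000293).

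Gpx4 (ENSMUSG00000075706, chr10:80047166-80056439, plus strand) encodes the peroxidase that reduces lipid peroxides in membranes. It was the most abundant of the 10 genes per length, at 611, 742 and 858 scaled TPM (lowest, median, highest) in casted mice, against 387, 435 and 514 in uncasted mice. The groups did not overlap, and the log2 change was 0.75 ± 0.07 (SE; fold 1.68; limma adjusted p = 1.06e-08). Gpx4-ps2, which matches Gpx4 at 99.7% identity over 762 bases, had 10.9% of the TPM of Gpx4 in the median casted library and 11.3% in the median uncasted one. The share ran from 9.03% to 14.2% over all 24 libraries.

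Gpx1 (ENSMUSG00000063856, chr9:108338903-108340343, plus strand) encodes the glutathione peroxidase of the cytosol and mitochondria. Its levels were 94.8, 106.5 and 125 scaled TPM (lowest, median, highest) in casted mice, against 71.1, 75.9 and 94.0 in uncasted mice. Every casted library lay above every uncasted one, though the lowest casted and highest uncasted libraries nearly met, and the log2 change was 0.49 ± 0.09 (SE; fold 1.41; limma adjusted p = 2.91e-05).

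Prdx1 (ENSMUSG00000028691, chr4:116685544-116700822, plus strand) encodes a peroxiredoxin of the cytosol that takes electrons from thioredoxin. It had 244, 279.5 and 308 scaled TPM (lowest, median, highest) in casted mice, against 204, 229 and 248 in uncasted mice. Of the casted libraries, 6 lay above the highest uncasted one, and the log2 change was 0.28 ± 0.10 (SE; fold 1.21; limma adjusted p = 0.0164). With 4 of the casted libraries only, the change kept its size of 0.28 but not the call (limma adjusted p = 0.0786 for replicates 1 to 4 and 0.0597 for replicates 5 to 8). Processed pseudogenes of 98.3% and 97.5% identity, Gm21399 and Gm7204, had means of 2.15 and 1.76 deposited TPM in casted mice, and of 0.881 and 1.14 in uncasted mice.

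Prdx3 (ENSMUSG00000024997, chr19:60864051-60874556, minus strand) encodes the peroxiredoxin of the mitochondrial matrix. Its levels were 124, 130 and 147.5 scaled TPM (lowest, median, highest) in casted mice, against 140.4, 145 and 156.5 in uncasted mice. Of the casted libraries, 6 lay below the lowest uncasted one, and the log2 change was -0.16 ± 0.05 (SE; fold 0.897; limma adjusted p = 0.0124). The call was lost with casted replicates 5 to 8 only, at -0.10 (limma adjusted p = 0.183). The direction turned on the deposited scale, to 0.36 (limma adjusted p = 0.000391).

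Prdx5 (ENSMUSG00000024953, chr19:6906697-6910106, minus strand) encodes a peroxiredoxin of mitochondria, peroxisomes and cytosol. It had 112, 129 and 141 scaled TPM (lowest, median, highest) in casted mice, against 134, 146 and 166 in uncasted mice. Of the casted libraries, 5 lay below the lowest uncasted one, and the log2 change was -0.20 ± 0.06 (SE; fold 0.868; limma adjusted p = 0.00613). Here too the direction turned on the deposited scale, to 0.31 (limma adjusted p = 0.000119). Trmt112 shares 409 exon bases with Prdx5 on the opposite strand, and the sources used here do not say if strand was kept, so reads of this stretch may belong to either gene.

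**Figure D3:**
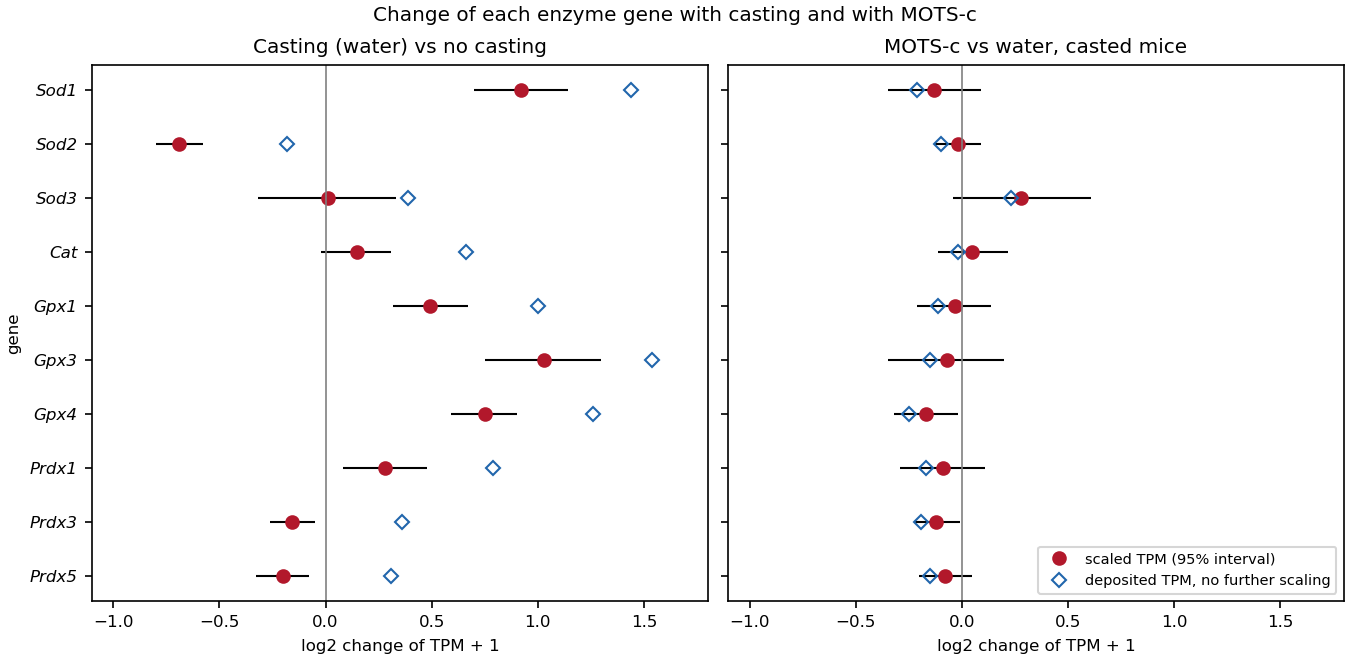
Log2 change of TPM + 1 (horizontal axes) of each gene in casted against uncasted mice (left) and in casted mice with MOTS-c against casted mice (right). Filled circles with 95% intervals are scaled TPM and open diamonds the deposited TPM; with casting the diamonds of Prdx3 and Prdx5 lie above 0 and their circles below it, and with MOTS-c 8 of the 10 intervals include 0, the exceptions being Gpx4 and Prdx3.

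The mitochondrial members were also set against Cs, the gene of the mitochondrial enzyme citrate synthase. Its transcript is used here as a comparator and not as a measure of mitochondrial content. Cs averaged 235 ± 14.2 scaled TPM in casted mice and 404 ± 14.2 in uncasted mice (SD, n = 8 each), and its log2 change was -0.78 ± 0.06 (SE; limma adjusted p = 1.3e-10). The Sod2 to Cs ratio had medians of 0.617 in casted mice and 0.567 in uncasted mice, with overlapping groups, and the log2 difference of 0.08 did not pass (exact permutation p = 0.09666, adjusted p = 0.132). Without casted replicate 6 it was 0.12 and passed (adjusted p = 0.0176). The Prdx3 to Cs ratio had medians of 0.558 and 0.366 in these groups, and the Prdx5 to Cs ratio 0.532 and 0.360. Neither overlapped, and the log2 differences were 0.62 and 0.58 (exact permutation p = 0.0001554 for each, adjusted p = 0.000466). Relative to Cs transcripts, then, Prdx3 and Prdx5 were higher in casted muscle, whichever scale is used between libraries. Cs itself fell further than most genes, as 5.47% of all genes tested had a lower log2 change. The median log2 change of 13 mitochondrial genes, Cs among them, was -0.29, nearer to -0.16 for Prdx3 and -0.20 for Prdx5. The Prdx3 and Prdx5 ratios thus describe a change relative to Cs only, and ratios to other mitochondrial comparator genes were not computed.

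Prdx1 and Prdx3 were also compared within libraries. The Prdx1 to Prdx3 ratio had medians of 2.21 in casted mice with MOTS-c, 2.04 in casted mice and 1.55 in uncasted mice. Casted and uncasted libraries did not overlap, with a log2 difference of 0.44 (exact permutation p = 0.0001554, adjusted p = 0.000466).

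MOTS-c was compared with water in casted mice. Of the 10 genes, Gpx4 and Prdx3 had the smallest p-values. Gpx4 had 600.1, 636 and 746 scaled TPM (lowest, median, highest) in casted mice with MOTS-c, against 611, 742 and 858 in casted mice. The log2 change was -0.17 ± 0.07 (SE; 95% interval -0.32 to -0.02; unadjusted p = 0.0322, adjusted p = 0.334 in limma). Prdx3 had 114, 117 and 139 scaled TPM with MOTS-c, against 124, 130 and 147.5 in casted mice. Its log2 change was -0.12 ± 0.05 (SE; 95% interval -0.22 to -0.01; unadjusted p = 0.0346, adjusted p = 0.342 in limma). The groups overlapped for both genes, and neither change passed after adjustment.

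Sod3 had the largest difference in this comparison, at 2.42, 4.20 and 6.04 scaled TPM (lowest, median, highest) in casted mice with MOTS-c, against 1.61, 3.05 and 6.11 in casted mice. Its log2 change was 0.28 ± 0.16 (SE; 95% interval -0.04 to 0.61; limma adjusted p = 0.428), and the ranges overlapped over most of their length. For the other 7 genes the log2 changes ran from -0.13 (Sod1; 95% interval -0.35 to 0.09) to 0.05 (Cat; 95% interval -0.11 to 0.22), and these intervals are what the data allow. Sod2 had 127, 136 and 169 scaled TPM with MOTS-c, against 130, 143 and 151 in casted mice (log2 change -0.02; 95% interval -0.13 to 0.09).

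Replicate 5 of the casted mice with MOTS-c had the lowest level of its group for Sod1 (278 scaled TPM), Gpx3 (152), Cat (50.3), Prdx1 (164), Gpx1 (90.7), Gpx4 (600.1) and Prdx3 (114), and the highest for Sod2 (169). Without it, the changes with MOTS-c in casted mice were -0.06 for Sod1 and -0.06 for Sod2. They were 0.02 for Gpx3 and 0.0008 for Prdx1, against -0.07 and -0.09 with all libraries. The number of the 10 genes past the threshold stayed at 0.

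Casted mice with MOTS-c were next set against uncasted mice. They share the uncasted libraries with the casting comparison, so the results of both are not independent. Of the 10 genes, 5 were higher (Gpx3, Sod1, Gpx4, Gpx1 and Cat) and 3 were lower (Sod2, Prdx5 and Prdx3), with backgrounds of 26.0% and 24.7% of all genes tested. The log2 changes were 0.96 ± 0.13 for Gpx3, 0.79 ± 0.11 for Sod1, 0.58 ± 0.07 for Gpx4 and 0.46 ± 0.09 for Gpx1 (SE; limma adjusted p from 8.04e-07 for Gpx4 to 9.45e-05 for Gpx1). Those of the lower genes were -0.71 ± 0.05 for Sod2, -0.28 ± 0.06 for Prdx5 and -0.27 ± 0.05 for Prdx3 (SE; limma adjusted p = 2.79e-10, 0.000484 and 0.000115). All libraries with MOTS-c lay above all uncasted ones for Gpx3 and Gpx4 and below them for Sod2, Prdx3 and Prdx5, where 7.26% and 8.15% of all genes did so.

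Levels of Sod1 ran from 278 to 509.7 scaled TPM in casted mice with MOTS-c (median 418), and 7 of the 8 libraries lay above the highest uncasted one at 281. Those of Gpx3 ran from 152 to 335 (median 242), against 105 to 144 in uncasted mice, and those of Gpx1 from 90.7 to 145 (median 102.5), against 71.1 to 94.0. Those of Prdx5 ran from 102 to 130 scaled TPM (median 123), against 134 to 166 in uncasted mice. On the deposited scale 8 of the 10 genes were higher and 1 was lower, against 60.0% and 6.94% of all genes. There Prdx3 and Prdx5 turned to 0.16 and 0.16 (limma adjusted p = 0.0794 and 0.0331). Prdx5 was thus called higher on that scale, and Prdx3 was not called.

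Cat had 50.3, 68.3 and 78.5 scaled TPM (lowest, median, highest) in casted mice with MOTS-c, against 51.6, 57.7 and 63.3 in uncasted mice. Its log2 change of 0.20 ± 0.08 (SE; limma adjusted p = 0.0374) lost its call in 8 of 24 fits that left out 1 library: replicates 1, 6, 7 or 8 of the casted mice with MOTS-c, or 1, 5, 6 or 8 of the uncasted mice (highest adjusted p = 0.0865). It also lost it with quantile normalization (0.0626) and with no filter on low values (0.0654). It was 0.26 without replicate 5 of the casted mice with MOTS-c (limma adjusted p = 0.00365). Prdx1 had 164, 262 and 336.5 scaled TPM in casted mice with MOTS-c, against 204, 229 and 248 in uncasted mice. Its log2 change of 0.19 ± 0.10 (SE) did not pass (limma adjusted p = 0.111), but it was 0.28 and passed without that library (limma adjusted p = 0.00164), and passed with weights for single libraries at 0.21 (limma adjusted p = 0.0178). Sod3 changed by 0.29 ± 0.16 (SE; limma adjusted p = 0.126), by 0.37 without replicate 8 of the casted mice with MOTS-c (limma adjusted p = 0.0442) and by 0.38 with such weights (limma adjusted p = 0.0352). On the deposited scale Prdx1 and Sod3 both passed, at 0.62 and 0.62 (limma adjusted p = 0.000101 and 0.00196).

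Ratios within libraries were compared for MOTS-c too. Against uncasted mice, the log2 difference was 0.46 for Prdx1 to Prdx3 (exact permutation p = 0.001243, adjusted p = 0.00233) and 0.44 and 0.43 for Prdx3 and Prdx5 to Cs (exact permutation p = 0.0003108 for each, adjusted p = 0.000666). Against casted mice, the Prdx5 to Cs ratio had a median of 0.477 with MOTS-c and 0.532 with water, and the log2 difference of -0.14 did not pass after adjustment (exact permutation p = 0.03263, adjusted p = 0.0544). It passed when replicate 5 or 6 of the casted mice, or replicate 2 or 8 of the casted mice with MOTS-c, was left out (lowest adjusted p = 0.014). The Sod2 to Cs ratio differed by -0.08 (exact permutation p = 0.1193, adjusted p = 0.149), or by -0.12 without casted replicate 6 (adjusted p = 0.028). The Prdx3 to Cs ratio differed by -0.18 (exact permutation p = 0.06387, adjusted p = 0.0958), or by -0.23 without replicate 2 of the casted mice with MOTS-c (adjusted p = 0.0275).

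The other genes of these pathways come from lists of names, and those named with values are the ones with the largest changes past the threshold with casting. None of the lists was blind to earlier results of these data, and 0 of the genes of any list below passed for MOTS-c against water in casted mice. Of all genes tested, 0.0136% were called higher and 0.00681% lower in that comparison. For the list counts with casting, the shares over all genes tested are 28.7% higher and 27.7% lower. On the deposited scale they are 62.2% and 7.43%. Whether a list departs from these shares was not tested. Among related dismutase and peroxidase genes, 1 of 6 tested was higher with casting and 0 were lower, or 5 and 0 on the deposited scale. The gene past the threshold on scaled TPM was Ccs, the chaperone that loads copper onto Sod1, at 16.3 ± 2.0 scaled TPM in casted mice and 12.7 ± 1.35 in uncasted mice (SD, n = 8 each; log2 change 0.33, limma adjusted p = 0.00836). The glutathione peroxidase genes Gpx7 and Gpx8 changed by 0.19 and -0.22 and did not pass (limma adjusted p = 0.0856 and 0.126). On the deposited scale Gpx7 passed at 0.62 (limma adjusted p = 1.62e-05), and Gpx8 at 0.23 did not (limma adjusted p = 0.149). In the thioredoxin system, which feeds electrons to the peroxiredoxins, 5 of 10 genes were higher and 1 was lower. Txn1, the cytosolic thioredoxin, was at 83.3 ± 9.84 scaled TPM in casted mice and 39.2 ± 1.77 in uncasted mice (SD, n = 8 each; log2 change 1.06, limma adjusted p = 1.35e-07). Srxn1, which repairs over-oxidised peroxiredoxins, changed by 0.66 and Sesn3, a sestrin, by 0.49 (limma adjusted p = 5.22e-05 and 0.00429). The lower gene was Txn2, the mitochondrial thioredoxin, at -0.25 (limma adjusted p = 0.00238). On the deposited scale 10 of the 10 were higher and 0 were lower, Txn2 included at 0.26.

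In the glutathione system, 3 of 12 genes tested were higher with casting and 4 were lower, or 8 and 1 (Gsta4) on the deposited scale. Gsta4, a glutathione transferase for products of lipid peroxidation, was at 5.56 ± 1.83 scaled TPM in casted mice and 13.8 ± 1.43 in uncasted mice (SD, n = 8 each; log2 change -1.21, limma adjusted p = 2.94e-07). The glutaredoxins Glrx and Glrx5 changed by -0.59 and -0.47 (limma adjusted p = 2.62e-07 and 9.6e-05). Neither passed on the deposited scale, at -0.10 and 0.03 (limma adjusted p = 0.255 and 0.754). The strongest rise was that of Gsr, which regenerates reduced glutathione with NADPH, at 0.80 (limma adjusted p = 8.3e-05). Of the genes listed for NADPH supply, not all of which make NADPH themselves, 3 of 8 were higher and 3 were lower, or 5 and 1 (Idh2) on the deposited scale. Those that rose belong to the pentose phosphate pathway of the cytosol: Pgd at 0.70, Taldo1 at 0.37 and Tkt at 0.27 (limma adjusted p = 7.73e-07, 0.000118 and 0.00878). The largest fall was that of Idh2, the NADP-dependent isocitrate dehydrogenase of mitochondria, at 90.9 ± 14.8 scaled TPM in casted mice and 193 ± 14.2 in uncasted mice (SD, n = 8 each; log2 change -1.09, limma adjusted p = 5.48e-08).

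Of the genes that insert selenocysteine or supply selenium, 2 of 9 tested were higher and 1 was lower (7 and 0 on the deposited scale). Trnau1ap, which associates with the selenocysteine transfer RNA, was at 19.7 ± 3.14 scaled TPM in casted mice and 8.52 ± 0.796 in uncasted mice (SD, n = 8 each; log2 change 1.11, limma adjusted p = 3.97e-09). Secisbp2, which binds the element that directs the UGA codon to selenocysteine, changed by 0.46 (limma adjusted p = 7.85e-05). Pstk, the kinase that makes the intermediate on that transfer RNA, changed by -0.54 (limma adjusted p = 1.98e-05). Its change on the deposited scale was -0.04 and did not pass (limma adjusted p = 0.663). Of the other selenoprotein genes, 2 of 12 were higher and 4 were lower, or 6 and 1 on the deposited scale. Selenow, abundant in muscle, was at 710.3 ± 128 scaled TPM in casted mice and 1322 ± 156 in uncasted mice (SD, n = 8 each; log2 change -0.91, limma adjusted p = 1.25e-07). Msrb1, a methionine sulfoxide reductase, and Selenot changed by -0.56 and -0.44, and Selenos by 0.57 (limma adjusted p = 0.000366, 1.43e-07 and 0.000143). Selenow was also lower on the deposited scale, at -0.39 (limma adjusted p = 1.59e-05), where Msrb1 (-0.05) and Selenot (0.07) did not pass. Transcripts of Gpx1, Gpx3 and Gpx4 were higher and that of Selenow lower on both scales.

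Of the genes for sources of superoxide and peroxide, 2 of 11 tested were higher and 2 were lower with casting (8 and 1, Maob, on the deposited scale). Nox4, an NADPH oxidase that makes hydrogen peroxide, changed by 0.40 (limma adjusted p = 0.00961). The monoamine oxidases Maob and Maoa changed by -0.87 and -0.23 (limma adjusted p = 2.1e-08 and 0.0313). Among peroxisome genes, the compartment of catalase, 6 of 20 were higher and 8 were lower, or 14 and 1 (Pex11a) on the deposited scale. Pex11a, which promotes division of peroxisomes, changed by -0.85, Acaa1a, a thiolase, by -0.57 and Pex10 by -0.49, and the strongest rise was that of Pex16 at 0.66 (limma adjusted p = 2.95e-06, 7.93e-07, 2.78e-05 and 2.71e-08). Among mitochondrial genes chosen for comparison with Sod2, Prdx3 and Prdx5, 1 of 13 was higher and 8 were lower, or 7 and 2 (Cs and Mdh2) on the deposited scale. Mdh2, Cs and Vdac3 changed by -0.86, -0.78 and -0.58, and Phb2 by 0.39 (limma adjusted p = 2.5e-10, 1.3e-10, 1.34e-07 and 5.87e-05). The median log2 change of that list was -0.29, and those of Sod2, Prdx5 and Prdx3 were -0.69, -0.20 and -0.16.

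**Figure D4:**
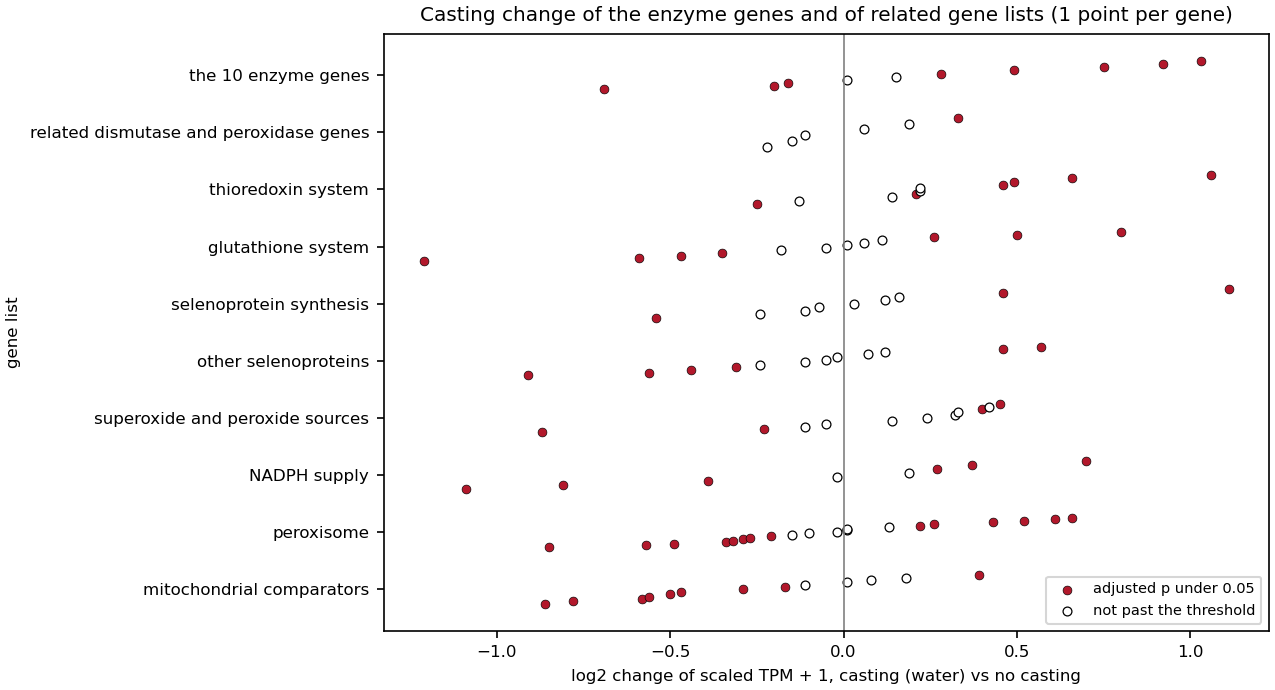
Log2 change of scaled TPM + 1 in casted against uncasted mice (horizontal axis) for the 10 enzyme genes and the genes of 9 lists (rows), 1 point per gene. Filled points passed an adjusted p of 0.05 in limma; 5 of the 10 enzyme genes are filled to the right of 0 and 3 to the left, and 8 of 13 mitochondrial genes are filled to the left. Of all genes tested, 28.7% were called higher and 27.7% lower.

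Markers of muscle and of other cells moved with casting as well. The shares over all genes tested, for the counts below, are 28.7% called higher and 27.7% called lower. The muscle markers Acta1, Ckm, Myh4, Tnnt3, Mb, Actn3 and Des were all detected, with a summed level of 58230 to 100600 scaled TPM in casted mice with MOTS-c, 55970 to 83600 in casted mice and 113400 to 128500 in uncasted mice. In casted against uncasted mice 6 of these 7 were lower and 1, Des, was higher. Of 10 macrophage markers, 8 were higher and 0 were lower, and their sum ran from 143 to 338 in casted mice with MOTS-c, from 114 to 268 in casted mice and from 92.2 to 121 in uncasted mice. All 8 endothelial markers were lower, with sums of 108 to 143, 96.3 to 134 and 125 to 187 in the same groups. Of 7 markers of smooth muscle and pericytes, 5 were lower and 0 were higher, with sums of 178 to 267, 139 to 214 and 248 to 308. Of 7 fibroblast markers, 5 were lower and 0 were higher, with sums of 364 to 708, 288 to 767 and 544 to 829. Of 7 adipocyte markers, 1 was higher and 1 was lower, with sums of 307 to 436, 186.5 to 331 and 266.5 to 339.5. Of 6 neutrophil markers, 3 were tested and all 3 were higher. Sums over that list were 1.805 to 21.0, 3.67 to 17.1 and 0.168 to 1.45 in the same groups. At the levels of uncasted mice these markers could pass the filter only through casted libraries, so their direction was largely set by the filter. Of 5 erythroid markers tested, 0 passed. Ly6g was listed at 0 in all libraries of casted mice with MOTS-c, and Mpo and Elane in all of uncasted mice; no other marker was at 0 in a whole group. On deposited TPM, the numbers higher and lower were 1 and 3 for muscle, 10 and 0 for macrophages, 1 and 2 for endothelium, 0 and 0 for smooth muscle and pericytes and 2 and 4 for fibroblasts. They were 5 and 0 for adipocytes, 3 and 0 for neutrophils and 4 and 0 for erythroid cells. On that scale 62.2% of all genes tested were called higher and 7.43% lower. The part of these cells in the results of the 10 genes was not tested.

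Within groups the 10 genes varied together to a limited degree. Levels were centred on their group means, and Pearson's r was computed over the 24 libraries as a description; all these values share the scaling of a library. The order of the pairs depended on replicate 5 of the casted mice with MOTS-c. With it, the largest was 0.68 for Cat and Gpx3, followed by 0.67 for Sod1 and Prdx1. Over the 23 libraries without it, these were 0.56 and 0.47, and the largest was 0.70 for Sod1 and Prdx5, against 0.51 with it. In both cases the value for Sod3 and Prdx5 was -0.50. The most similar gene was sought among protein-coding genes with a mean of at least 5 scaled TPM. Predicted genes and pseudogenes were left out, so the near-copies Gpx4-ps2 and Gm8566 were not searched. Among these genes, the one most like Sod1 was Psma4 (r = 0.91), and those most like Sod2, Sod3 and Cat were mt-Nd4 (0.81), Cxcl14 (0.90) and Samd4b (0.90). Gpx1, Gpx3 and Gpx4 were most like Ppa1 (0.84), Rlim (0.87) and Dtd2 (0.78). Prdx1, Prdx3 and Prdx5 were most like Psmd11 (0.89), Tst (0.88) and Stx4a (0.81). Without replicate 5 of the casted mice with MOTS-c, the value for Sod2 and mt-Nd4 was 0.67 and that for Prdx1 and Psmd11 was 0.75.

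The RefSeq promoter windows of GRCm38.p6, from 250 bases before to 50 bases after a gene's start, were searched on both strands for TGACNNNGC, the core of the antioxidant response element bound by Nrf2. Windows were found for 9 of the 10 genes (4 for Gpx4), and 2 of these 12 windows had a match (16.7%), against 12.4% of 32851 windows of the same length, so the share was near the background. The stretches around the matches are shown with the match in capitals. It reads as the motif on the other strand, so the capitals are its reverse complement.
Prdx1, chr4:116685441-116685499, plus strand: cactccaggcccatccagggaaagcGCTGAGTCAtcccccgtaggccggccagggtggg
Sod1, chr16:90220681-90220739, plus strand: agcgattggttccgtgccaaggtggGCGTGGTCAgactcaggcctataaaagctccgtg
The matches begin 133 bases before the start of Prdx1 and 56 bases before that of Sod1. These distances are counted from the RefSeq starts that set the windows, which differ from the gene coordinates given above. The windows of Cat, Gpx1, Gpx3, Gpx4, Sod2, Prdx3 and Prdx5 held none. A match is a run of letters and not a measured binding site.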

How the data were processed

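One table per library gave TPM for 55487 Ensembl genes, deposited by the authors for all 24 libraries. Per the submitters' processing notes, FastQC, STAR and RSEM were used with the build GRCm38.p6; versions and the annotation release are not given in the sources used here, nor is whether the libraries keep strand. The labels' protocols name TRIzol and a column kit for RNA extraction and a library kit that captures poly-adenylated RNA. TPM keep no depth, so no counting intervals were computed.

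TPM were scaled by an unweighted trimmed mean of log ratios (trims of 0.3 of the ratios and 0.05 of the mean levels at each end). The filter of 0.5 TPM or more in 8 or more libraries left 14690 genes, which were fitted on log2(scaled TPM + 1) with limma 3.58.1 (R 4.3.3; mean-variance trend, 3 group means, two-sided), and p-values were adjusted over all genes by Benjamini-Hochberg, with a threshold of 0.05. Fold changes on this scale understate those of low genes. The fit was tested on simulated data. Ratios within libraries were compared by exact permutation tests (scipy 1.17.1). Each mouse is 1 library, so the spread is between mice. Symbols and coordinates come from the GENCODE annotation of GRCm38 (55227 identifiers with a symbol), and near-copies are transcripts with at least 95% identity over 400 bases (blastn 2.17.0).

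The 10 genes, the lists and the tests were chosen with earlier results of these data known. From each of 9 pathway lists, the text names up to 3 genes past the threshold with casting in the more frequent direction and the strongest in the other. Of these, 1 is not reported here. Where a symbol had 2 identifiers (Nnt), the one with the higher mean was used. Alternatives tried were other scalings, pseudocounts, filters, a fold minimum, library weights, casted replicates 1 to 4 or 5 to 8 only, the replicate block, and leaving out each library.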

Additional observations from a re-analysis of the deposited data

Results flagged for a closer look

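Each of the 10 genes was screened in each of the 3 groups by Dixon's test at its 95% critical value, which chance alone passes in about 1 of 20 such sets. Single libraries stood apart from the other 7 of their group in 3 cases. Sod2 in casted mice with MOTS-c was at 169.2 scaled TPM in replicate 5 and next highest at 146.8, a gap of 0.529 of the group's range. Gpx1 in uncasted mice was at 94.03 scaled TPM in replicate 8 and next highest at 81.41, a gap of 0.551 of the range. Prdx5 in uncasted mice was at 165.9 scaled TPM in replicate 8 and next highest at 148.6, a gap of 0.539 of the range. Replicate 8 of the uncasted mice also had the smallest scaling factor of all 24 libraries, 0.731; its part in these values was not tested.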

How the results depend on the processing

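With casting, 9 of the 10 genes were higher and 1 was lower on deposited TPM, and 1 was lower under a fold of at least 1.2, as were 1717 of the 14690 genes tested. For casted mice with MOTS-c against uncasted mice these counts were 8 and 1 on deposited TPM, and 3 higher and 1 lower under that fold, as were 1279 and 1292 of all genes. On deposited TPM, Prdx3 and Prdx5 turned to 0.36 and 0.31 with casting and to 0.16 and 0.16 with MOTS-c against uncasted mice, and Cat with MOTS-c in casted mice to -0.022; the scaling places the median gene near 0 by construction. Directions also turned for small changes. Sod3 with casting was -0.011 when scaled to equal medians, -0.011 with a pseudocount of 0.1 and -0.082 with casted replicates 5 to 8 only. With those replicates only, MOTS-c in casted mice gave 0.0032 for Sod2 and -0.089 for Cat, and with casted replicates 1 to 4 only it gave 0.18 for Gpx3 and -0.031 for the Prdx1 to Prdx3 ratio. Leaving out 1 library gave ranges of -0.10 to 0.10 for Sod3 with casting and, for MOTS-c in casted mice, of -0.056 to 0.0028 for Sod2, -0.14 to 0.023 for Gpx3, -0.15 to 0.00083 for Prdx1, -0.17 to 0.00077 for the Sod1 to Sod2 ratio and -0.028 to 0.10 for the Prdx1 to Prdx3 ratio. The Sod2 to Cs ratio in casted mice with MOTS-c against uncasted mice ran from -0.022 to 0.016. The cause of these changes was not tested. Equal replicate numbers did not deviate together in most pairs of groups, and the largest r was 0.371, for replicate 8 of both casted groups. The labels do not say whether equal numbers share anything else, and this was not tested further. A replicate block left the counts of the 10 genes at 5 and 3 with casting, 0 and 0 with MOTS-c in casted mice, and 5 and 3 for MOTS-c against uncasted mice. Over all genes, the block gave 13 higher and 5 lower with MOTS-c in casted mice, against 2 and 1 without it, 678 and 838 with casted replicates 5 to 8 only, and 1 and 1 with replicates 1 to 4 only. The unknown depth limits what can be said of Sod3, the gene with the lowest level.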
